A study of Mus musculus with 30 samples.

Results

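The UDP-glucuronosyltransferases (Ugt enzymes) were followed through the livers of mice with 5 forms of the growth hormone receptor, with subcutaneous fat as the contrast. The genes are Ugt1a1, Ugt1a10, Ugt2a3, Ugt2b1, Ugt2b5, Ugt2b34, Ugt2b35, Ugt2b36 and Ugt3a1, and a probe belongs to one of them when the platform annotation gives it that symbol. Of these 9 listed genes, 8 had a probe, with 10 probes among the 46643 of the array. Ugt1a10 had 3 probes, each of the other 7 genes had 1, and no probe carried the symbol Ugt1a1. The mice were 4-month-old males that had been fasted overnight. They carried a wild-type growth hormone receptor (WT), a knock-in receptor ending at residue 569 (569) or at residue 391 (391), one whose Box1 region was mutated (Box1), or no receptor (KO). The labels limit these changes to no tissue, and they give no strain or number of founder lines. Each of the 10 groups of tissue and genotype held 3 arrays, 30 in all. Replicate numbers used here follow the order of the samples and are not in the labels. The same number in liver and fat need not mean the same animal. Nothing in the labels says that each array came from an animal of its own, so the p-values measure the spread between arrays, which may in part be technical.

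Ugt enzymes sit in the endoplasmic reticulum and join glucuronic acid, taken from UDP-glucuronate, to bilirubin, steroids, bile acids, drugs and other lipophilic compounds, which makes them soluble enough to leave in bile or urine. The Ugt1 genes are made from alternative first exons joined to a common set of last exons, while each Ugt2 gene is a transcription unit of its own, with the Ugt2b genes in a cluster of close relatives. The liver is a main site of these enzymes, and it is also a main target of growth hormone, whose receptor signals through the kinase JAK2, bound at Box1, to the transcription factor STAT5 and its target Igf1.

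The bases just before the start of the genes that the results turn on are shown as a reference for the values that follow. All 9 listed genes had an entry among the RefSeq promoters of GRCm38.p6, and 5 windows of 250 bases upstream of the start are printed 5′ to 3′. Capitals mark GTTAAN, the core letters of the site bound by the liver factor HNF1, on either strand. Ugt2b1 is the listed gene called against WT, Ugt2b5 and Ugt2b36 are relatives on the same chromosome, and Ugt1a10 and Ugt1a9 are genes of the Ugt1 locus.
Ugt2b1, chr5:86926504-86926753 (- strand): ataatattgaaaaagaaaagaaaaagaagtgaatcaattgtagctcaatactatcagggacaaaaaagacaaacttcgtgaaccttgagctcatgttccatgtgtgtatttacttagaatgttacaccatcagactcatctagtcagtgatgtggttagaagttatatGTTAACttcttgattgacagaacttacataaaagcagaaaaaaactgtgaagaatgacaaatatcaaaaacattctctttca
Ugt2b5, chr5:87140341-87140590 (- strand): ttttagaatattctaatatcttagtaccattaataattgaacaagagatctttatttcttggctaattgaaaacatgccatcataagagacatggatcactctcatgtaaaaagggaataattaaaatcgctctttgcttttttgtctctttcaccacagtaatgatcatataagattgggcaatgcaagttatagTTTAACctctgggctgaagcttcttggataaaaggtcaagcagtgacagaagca
Ugt2b36, chr5:87092556-87092805 (- strand): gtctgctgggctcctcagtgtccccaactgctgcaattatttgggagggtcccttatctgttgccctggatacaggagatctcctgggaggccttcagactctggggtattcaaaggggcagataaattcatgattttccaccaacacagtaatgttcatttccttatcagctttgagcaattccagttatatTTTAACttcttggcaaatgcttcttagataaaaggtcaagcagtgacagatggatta
Ugt1a10, chr1:88055161-88055410 (+ strand): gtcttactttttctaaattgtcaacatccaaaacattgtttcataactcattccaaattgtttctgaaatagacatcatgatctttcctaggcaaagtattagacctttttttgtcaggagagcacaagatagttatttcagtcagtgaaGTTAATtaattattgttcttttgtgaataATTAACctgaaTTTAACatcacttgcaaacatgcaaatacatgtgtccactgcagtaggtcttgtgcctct
Ugt1a9, chr1:88070529-88070778 (+ strand): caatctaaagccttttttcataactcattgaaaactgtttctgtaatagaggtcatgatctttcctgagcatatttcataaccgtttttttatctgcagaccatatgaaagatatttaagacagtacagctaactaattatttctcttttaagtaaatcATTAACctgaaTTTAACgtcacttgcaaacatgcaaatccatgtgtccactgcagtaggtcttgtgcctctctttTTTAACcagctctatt

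The windows of the 9 listed genes were poor in G and C, at 30.4% to 44.8%, against a median of 52.4% over all 32851 RefSeq promoter windows of the same length. GTTAAN was present in 9 of the 9, and in 21.6% of all windows. In Ugt2b1 the match began 82 bases before the start, and its letters read as GTTAAN on both strands. In Ugt2b5 it began 54 bases before the start and in Ugt2b36 57 bases before it, both on the antisense strand. TTCNNNGAA, the palindrome bound by STAT5, which reads the same on both strands, was found in 0 of the 9 windows and in 7.02% of all windows. Ugt2b5 and Ugt2b36 shared a run of 24 identical bases, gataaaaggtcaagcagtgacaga, close to the start. The longest run that the window of Ugt2b1 shared with that of another listed gene had 11 bases, and the median over the 36 pairs of listed genes was 9. Ugt1a10 and Ugt1a9 shared a run of 32 bases, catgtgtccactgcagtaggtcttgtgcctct. These matches describe letters in the reference and show no binding.

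The deposited value of a probe is its signal divided by the median of that probe over the 15 arrays of the tissue, so 1 is the middle array and no absolute level is left. Differences are given on the log2 scale. They were tested with limma over all 46643 probes, with Benjamini-Hochberg adjustment, and a difference is called where the adjusted p is under 0.05. The 3 wild-type livers serve in every comparison with WT, so these comparisons are not independent of each other. In whole tissue, fewer cells that express a gene and less RNA per cell cannot be told apart. As a check of the liver labels, Igf1, the growth hormone target, had ratios of 18.39 to 20.72 in WT and 11.24 to 14.44 in 569. It had 0.43 to 0.61 in 391, 0.44 to 0.57 in Box1 and 0.68 to 1.15 in KO. This parts WT and 569 from the rest but cannot show which group is 391, Box1 or KO. In fat Igf1 was at 1.76 to 3.08 in WT and at 4.46, 4.02 and 0.34 in 569. There it was at 0.91 to 1.04 in 391, 0.63 to 1 in Box1 and 0.85 to 0.88 in KO, so the fat labels are checked less well. The 2 probes of Ghr, the receptor gene, were not low in KO, at 1.09 to 1.51 and 0.81 to 1.4 against 0.92 to 1.27 and 0.61 to 1.14 in WT, and the first was at 0.23 to 0.3 in Box1. Where these probes lie relative to the deleted part is not known here, so they check nothing. The mean log2 ratio of 7 hepatocyte markers was -0.26 to -0.18 in the WT livers, -0.34 to -0.06 in 569, 0 to 0.32 in 391, -0.03 to 0.10 in Box1 and -0.11 to 0.17 in KO, so every 391, Box1 and KO liver was above every WT liver. For macrophage markers it was -0.13 to -0.07 in WT and 0.21 to 0.37 in KO, and for bile duct markers -0.01 to 0.19 in WT and -0.23 to -0.07 in KO, without overlap in either case. Over all livers that mean lay between -0.23 and 0.19 for bile duct markers, -0.12 and 0.08 for enterocyte, -0.10 and 0.11 for kidney tubule, -0.27 and 0.50 for macrophage, and -0.49 and 0.50 for adipocyte markers. Pancreatic acinar transcripts stood out in 391 replicates 2 and 3, where 10 and 8 of the 10 measured markers were more than 1 above the liver median on the log2 scale. Slides were inferred from the number at the head of each array code in the sample titles, which do not use the word slide. By that reading WT and 569 livers shared a slide, as did 391 and KO livers, and the Box1 livers lay on another slide. Slide and genotype thus cannot be told apart outside the pairs 569 with WT and KO with 391.

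Ugt2b1, an enzyme that conjugates steroids and phenols, fell in the livers of 391, Box1 and KO mice. The ratios of its probe were 1.96, 1.94 and 2.41 in the WT livers and 1.31, 1.58 and 1.75 in the 569 livers. They were 0.63, 0.64 and 0.58 in 391, 0.62, 0.64 and 0.9 in Box1, and 1.05, 0.86 and 1 in KO. All WT and 569 livers were above all 391, Box1 and KO livers, and WT did not overlap 569. Groups lay below WT without overlap for 6.72% of all probes in 569, 5.28% in 391, 4.87% in Box1 and 6.07% in KO. No such share was counted for pairs without WT. The KO livers were above the 391 livers without overlap, and 1 of the 3 Box1 livers lay among the KO livers.

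In log2 terms the mean of Ugt2b1 was 1.07 ± 0.18 (SD, n = 3) in WT, 0.62 ± 0.21 in 569, -0.05 ± 0.15 in KO, -0.50 ± 0.30 in Box1 and -0.70 ± 0.08 in 391. Against WT, it fell by 1.76 in 391 (3.4-fold lower, 95% interval of the log2 difference -2.07 to -1.46, limma adjusted p = 7e-06). It fell by 1.56 in Box1 (2.95-fold lower, limma adjusted p = 2.1e-05) and by 1.11 in KO (2.17-fold lower, limma adjusted p = 0.00068). Each of these falls was called in every alternative run, leaving out each array in turn included. Without 391 replicates 2 and 3, which carried the pancreatic transcripts, the difference of the remaining 391 liver was -1.73 (limma adjusted p = 0.00094, the lone array being assumed to vary like the other groups). The hepatocyte markers were higher in these mutants than in WT, the opposite direction to Ugt2b1, and their part in its fall was not tested.

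**Figure D1:**
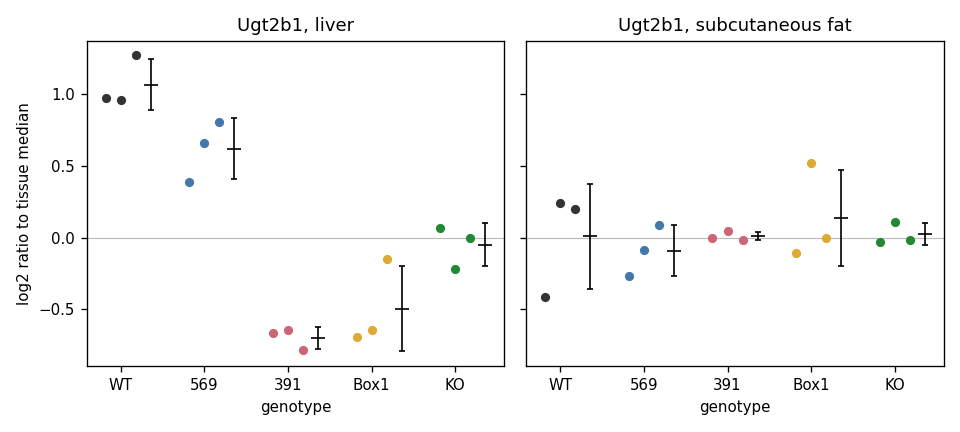
Ugt2b1 on every array, as the log2 ratio to the median of the tissue, in liver on the left and subcutaneous fat on the right. Points are the 3 arrays of each genotype, and the bar beside them is their mean with 1 SD. In liver the WT and 569 arrays lie at ratios of 1.31 or more and all others at 1.05 or less, while in fat the genotypes overlap.

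The order of the Ugt2b1 levels was WT, 569, KO, Box1 and 391, and not all neighbours in it differed. The 569 livers were below WT by 0.45 (SE 0.14, 95% interval of the log2 difference -0.75 to -0.14), which was not called (limma adjusted p = 0.51), on a slide that both groups shared. KO was below 569 by 0.67 (limma adjusted p = 0.017), a call lost in 4 of 14 alternatives, with a highest adjusted p of 0.085. The call was lost without 569 replicate 2 (adjusted p = 0.077), 569 replicate 3 (adjusted p = 0.07) or KO replicate 2 (adjusted p = 0.085). It was also lost with all 30 arrays in 1 fit (adjusted p = 0.062). Box1 was not called against KO (KO minus Box1 0.45, limma adjusted p = 0.35), nor 391 against Box1 (Box1 minus 391 0.20, 95% interval -0.10 to 0.51, limma adjusted p = 0.9). KO minus 391, measured within 1 slide, was 0.65 (95% interval 0.34 to 0.96), and was not called (limma adjusted p = 0.11). Besides that of KO, the steps called against 569 were -1.32 in 391 (limma adjusted p = 0.00016) and -1.11 in Box1 (limma adjusted p = 0.00076).

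Ugt2b1 did not show these differences in fat, where the ratios were 0.75, 1.18 and 1.15 in WT, 0.83, 0.94 and 1.06 in 569, and 1, 1.03 and 0.99 in 391. They were 0.93, 1.43 and 1 in Box1 and 0.98, 1.08 and 0.99 in KO, and every genotype overlapped WT. The largest difference from WT in fat was 0.13, in Box1 (limma adjusted p = 1). On the highest arrays, Box1 replicate 2 and WT replicates 2 and 3, the mean log2 ratio of 7 hepatocyte markers was 2.92, 1.67 and 0.76. On the lowest, WT replicate 1, it was -0.55. The part of these markers in the fat values of Ugt2b1 was not tested. The difference from WT was lower in liver than in fat by 1.77 for 391 (limma interaction, adjusted p = 0.00035), by 1.69 for Box1 (adjusted p = 0.00069) and by 1.13 for KO (adjusted p = 0.041), the last being lost in 11 of 19 alternatives, each removal of a WT or KO liver among them (highest adjusted p = 0.13). It was lower by 0.35 for 569, which was not called (adjusted p = 0.77). The shares of all probes called in these terms were 0.227%, 0.148%, 0.341% and 0%, and Ugt2b1 was the 1 listed gene of 8 called in each of the first 3. The ratios of the tissues have separate medians, so these are differences between changes and not between levels. A fat probe near background would also read close to 1, and signal over background is not known here.

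The genes outside the family whose log2 ratios followed Ugt2b1 most closely over the 15 livers were Ces3a (r = 0.959), Ces3b (r = 0.95), both carboxylesterases, and Igf1 (r = 0.938). These values describe 15 arrays that share 5 genotypes, so they carry the differences between genotypes. The fall of those genes was deeper: Ces3a differed from WT by -5.18 in 391, -5.05 in Box1 and -3.14 in KO, and Igf1 by -5.31, -5.30 and -4.39. In 569 the differences from WT were -0.14 for Ces3a (limma adjusted p = 0.97) and -0.55 for Igf1 (limma adjusted p = 0.52), beside -0.45 for Ugt2b1. Ces3a and Ces3b are close relatives, and their probes may read both.

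Over the 8 listed genes with a probe, Ugt2b1 was alone in being called against WT. In 391 it was 1 of 8, where 1.91% of all probes were called and 0.427% were called lower. In Box1 it was 1 of 8, against 1.32% of all probes and 0.264% called lower, and in KO 1 of 8, against 1.93% and 0.489%. In 569 it was 0 of 8, with 2 at an unadjusted p under 0.05, and 0.00858% of all probes were called. The median difference of the 8 genes was -0.25 in 569, -0.33 in 391, -0.08 in Box1 and -0.05 in KO, where the median of all probes was -0.02, 0.02, 0.02 and 0.02. Against 569, Ugt2b1 was the 1 of 8 called in 391 (4.7% of all probes called, 0.386% lower) and in Box1 (4.95%, 0.328% lower). Between Box1 and 391 the count was 0 of 8, with 1 at an unadjusted p under 0.05, and 0.00429% of all probes were called. The number of genes called in KO against WT rose to 2 or 3 under some settings, through Ugt1a10 and Ugt2b35, whose values follow.

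**Figure D2:**
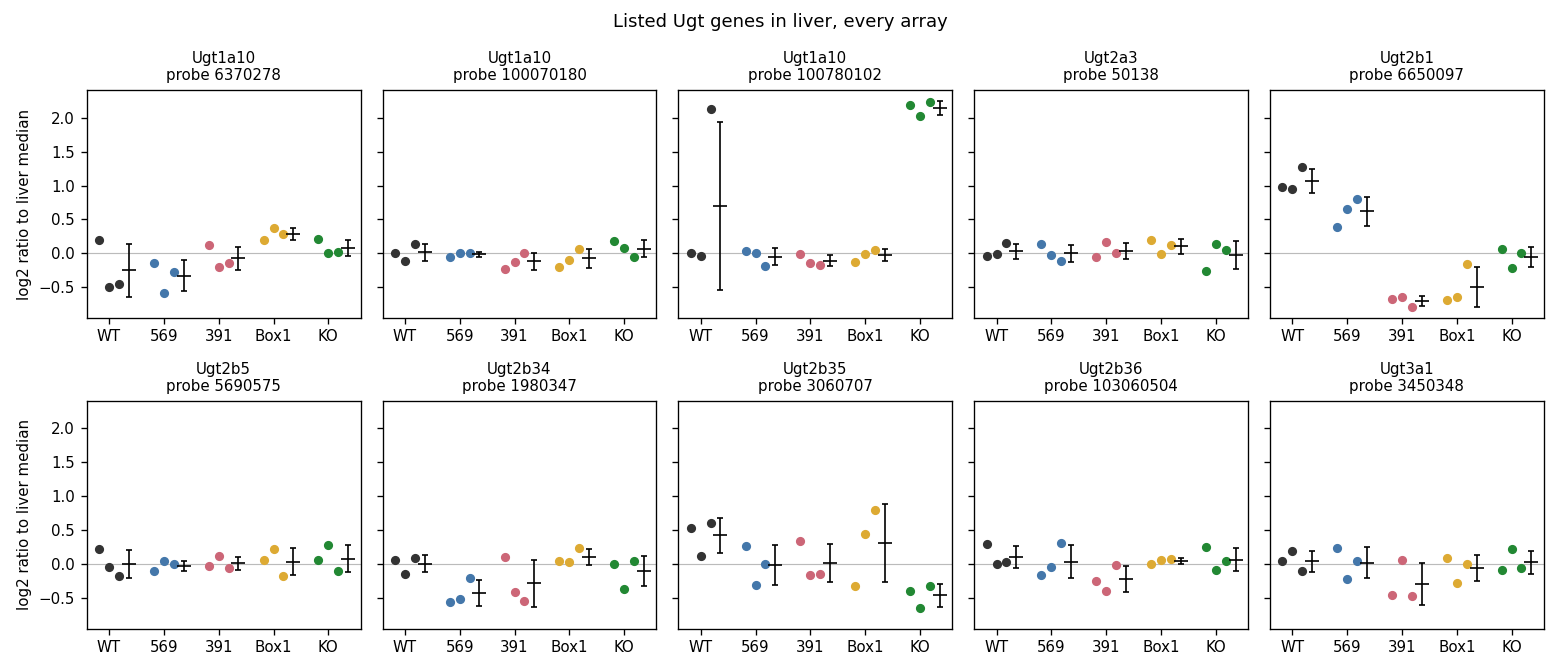
All 10 probes of the listed Ugt genes in the 15 livers, as the log2 ratio to the probe's median over the livers, with points for arrays and a bar for the mean and 1 SD of the 3 arrays of a genotype. Ugt2b1 steps down from WT and 569 to the other genotypes, 1 of the 3 Ugt1a10 probes is high in KO and in 1 WT liver, and Ugt2b35, between 0.64 and 1.74, spreads the most of the other probes.

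Ugt1a10 belongs to the Ugt1 locus, and its 3 probes did not agree. Probe 100780102 gave ratios of 4.53, 4.06 and 4.67 in the KO livers, and 1.01, 0.97 and 4.37 in the WT livers. In the 9 livers of 569, 391 and Box1 it lay between 0.88 and 1.04. The values thus took a low and a high level with nothing between, and WT replicate 3 stood with the KO livers, so the high level was not limited to KO. The labels give no strain background for any animal, and its part in the KO differences at this probe was not tested.

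KO was above 569 at this probe by 2.19 (limma adjusted p = 0.0046), above 391 by 2.25 (limma adjusted p = 0.028) and above Box1 by 2.17 (limma adjusted p = 0.039). The last of these calls was lost whichever KO or Box1 array was left out, with adjusted p between 0.11 and 0.15, and the call against 391 was lost without any of the 3 KO arrays, without 391 replicate 1 or 2, and without both pancreatic arrays (2.16, adjusted p = 0.12). In these cases the size of the difference stayed between 2.12 and 2.31. Against WT the difference was 1.44 and was not called (limma adjusted p = 0.07), and without WT replicate 3 it was 2.16 (limma adjusted p = 1.7e-08). With these calls, 2 of the 8 listed genes were called in KO against 569, Ugt1a10 higher and Ugt2b1 lower, where 4.29% of all probes were called, 3.82% higher and 0.465% lower. Ugt1a10 was the 1 of 8 called in KO against 391 and against Box1, where 0.18% and 0.148% of all probes were called, 0.0986% and 0.0643% higher.

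The other Ugt1a10 probes did not show this pattern. Probe 100070180 lay between 0.85 and 1.14 in all 15 livers. Probe 6370278 gave 1.15, 0.71 and 0.73 in WT, 0.91, 0.67 and 0.83 in 569, 1.09, 0.87 and 0.91 in 391, 1.15, 1.3 and 1.22 in Box1, and 1.16, 1 and 1.02 in KO. Its Box1 livers were above its 569 livers by 0.62 (limma adjusted p = 0.041). That call was lost in 7 of 13 alternatives, among them leaving out 569 replicate 2 or 3 or any Box1 array (adjusted p = 0.072 to 0.2). Across the livers the correlation of probe 100780102 was 0.587 with probe 100070180 and 0.026 with probe 6370278. Which transcripts each probe reads is not known here, and probe 100780102 cannot be taken for the gene as a whole.

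Ugt1a9, a gene of the same locus outside the list, had a probe with a like pattern. Its ratios were 2.89, 2.44 and 3.07 in KO, 1, 1.22 and 2.77 in WT, 0.95, 1.07 and 0.86 in 569, 0.81, 0.98 and 0.44 in 391, and 0.53, 0.55 and 1.51 in Box1. WT replicate 3 again lay with the KO livers, and KO was above 569 by 1.54 (limma adjusted p = 0.041), a call lost in 8 of 13 alternatives, among them leaving out any 1 of the 6 arrays (adjusted p = 0.082 to 0.12). The correlation of this probe with Ugt1a10 probe 100780102 was 0.88 over the 15 livers. A probe of Cptp, the gene of a ceramide-1-phosphate transfer protein on chromosome 4, which was picked after its values were seen, tracked Ugt1a10 probe 100780102 more closely still, at 0.996. It read 3.14, 2.92 and 3.42 in KO and 1.05, 0.89 and 2.98 in WT, against 0.89 to 1.04 in the other livers. In fat, Ugt1a10 probe 100780102 lay between 0.91 and 1.08 on all 15 arrays, and its correlation there was -0.072 with Ugt1a9 and -0.091 with Cptp. The Cptp probe had a low and a high level in fat as well, but under another genotype. It read 1.91, 1.71 and 1.84 in 391 and 1.66 in WT replicate 3. The other fat arrays, KO among them, lay between 0.78 and 1.03. Its high genotype was thus KO in liver and 391 in fat. Thg1l (r = 0.882) and BC018473 (r = 0.878), next closest to probe 100780102 and likewise picked after their values were seen, showed the same switch. Thg1l read 1.54 to 1.64 in KO livers and 1.65 to 1.91 in 391 fat, and at most 1.19 on all other arrays. BC018473 read 2.77 to 4.22 in KO livers and 11.01 to 20.83 in 391 fat. Replicate 3 of WT gave 1.33 in liver and 8.99 in fat for BC018473, and its remaining arrays 0.83 to 1.11. Whether the 391 and KO labels hold in both tissues was not tested, and all comparisons of these groups rest on them.

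**Figure D3:**
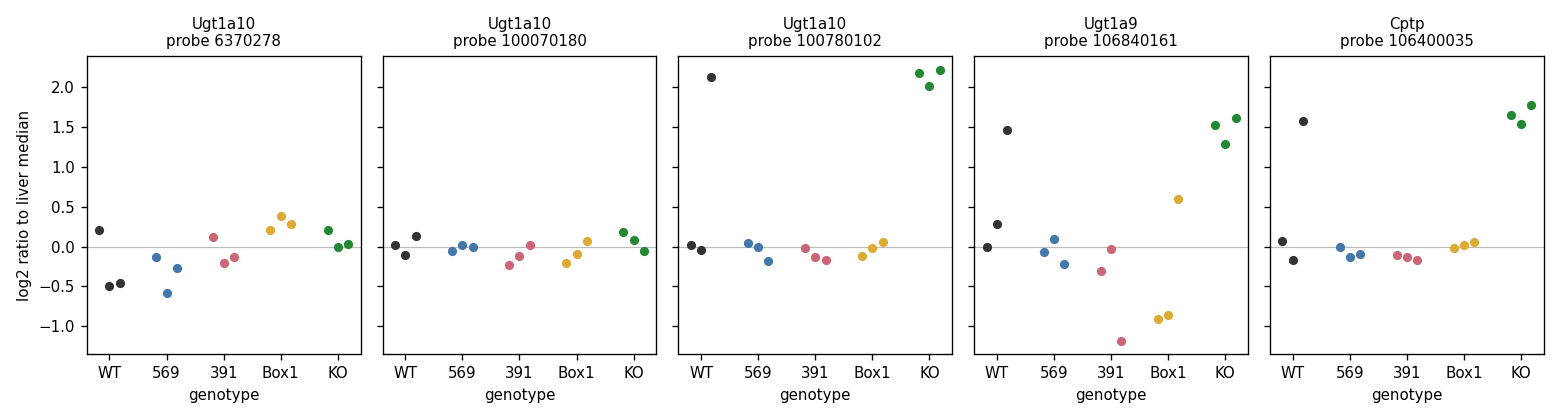
The 3 Ugt1a10 probes, the Ugt1a9 probe and the Cptp probe in the 15 livers, as the log2 ratio to each probe's liver median, 1 point per array. Probe 100780102 of Ugt1a10, Ugt1a9 and Cptp are high in all 3 KO livers and in WT replicate 3, and the other Ugt1a10 probes are not.

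Ugt2b35 and Ugt2b34, relatives of Ugt2b1 in the same cluster, differed between some groups without a call. Ugt2b35 gave 1.45, 1.09 and 1.53 in WT, 1.21, 0.81 and 1 in 569, 1.27, 0.9 and 0.91 in 391, 0.8, 1.36 and 1.74 in Box1, and 0.76, 0.64 and 0.8 in KO. All 3 KO livers lay below all 3 WT livers, as was the case for 6.07% of all probes, and the difference was -0.88 (SE 0.24, limma adjusted p = 0.078). It was called among the probes of higher SD alone (adjusted p = 0.031) and with WT and KO fitted alone (adjusted p = 0.011).

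Ugt2b34 gave 1.05, 0.91 and 1.07 in WT and 0.68, 0.7 and 0.87 in 569. The 569 livers were all below the WT livers, as for 6.72% of all probes, by 0.43 (limma adjusted p = 0.58). The ratios were 1.08, 0.75 and 0.69 in 391, 1.03, 1.02 and 1.18 in Box1, and 1, 0.78 and 1.03 in KO. The Box1 livers were above the 569 livers by 0.53, which was not called (limma adjusted p = 0.068). Neither gene had the order of genotypes seen for Ugt2b1.

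The remaining 4 listed genes were not called. The SD of their log2 ratios over the 15 livers was 0.13 for Ugt2a3, 0.14 for Ugt2b5, 0.19 for Ugt2b36 and 0.22 for Ugt3a1, at the 41.2, 54, 75 and 82.5 percentiles of all probes, so Ugt2b36 and Ugt3a1 varied more than most of the array. Ugt2a3, an enzyme of liver and intestine, lay between 0.84 and 1.15 over the 15 livers. Ugt2b5, a steroid-conjugating enzyme, lay between 0.89 and 1.22, and Ugt2b36 between 0.76 and 1.24. Ugt3a1, of a family that uses other sugar donors than UDP-glucuronate, lay between 0.72 and 1.18. None of these 4 passed the test in any of the 10 liver comparisons. Since a ratio holds no level, a steady transcript and one below detection read alike. The probes of close Ugt2b relatives may also read more than 1 copy, so which copy was measured is uncertain.

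**Figure D4:**
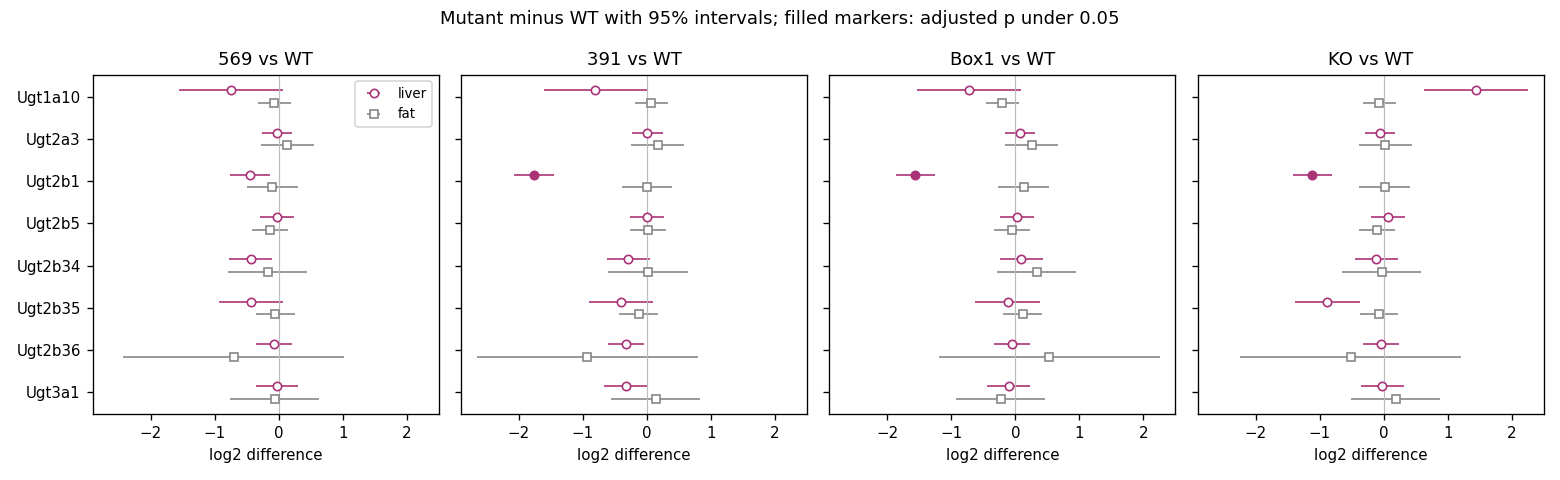
Differences from WT on the log2 scale for the 8 listed genes with a probe, with 95% intervals from limma, 1 panel per mutant. The intervals of Ugt2b1 in liver lie below 0 in all 4 mutants, and it alone is called, in 391, Box1 and KO.

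Among 11 further Ugt genes with 21 probes, the calls against WT in liver were all in genes of the Ugt1 locus and all upward. They were 1 of 21 probes in 391 (1.91% of all probes called, 1.48% higher), 2 of 21 in Box1 (1.32%, 1.06% higher), and 0 of 21 in KO (1.93%) and in 569 (0.00858%), with 4 and 2 at an unadjusted p under 0.05. Ugt1a6a, whose enzyme conjugates simple phenols, gave at probe 103830273 ratios of 1.38, 1.72 and 1.45 in Box1 against 1.11, 0.72 and 0.69 in WT (difference 0.88, limma adjusted p = 0.012). At its probe 2630075 it gave 1.27, 1.14 and 1.28 against 0.88, 0.77 and 0.75 (difference 0.62, limma adjusted p = 0.014). The other 3 Ugt1a6a probes were not called, with differences of -0.04, 0.04 and 0.54. Ugt1a6b probe 6940114 gave 1.33, 1.01 and 1.03 in 391 against 0.87, 0.77 and 0.77 in WT (difference 0.47, limma adjusted p = 0.035). The other Ugt1a6b probe, 4810601, had the opposite sign in 391, with 1.62, 0.87 and 0.4 against 0.98, 1.04 and 0.7 (difference -0.11, limma adjusted p = 0.95). The call of probe 6940114 was lost without 391 replicate 1 (difference 0.35, adjusted p = 0.13) and without WT replicate 2 or 3. The call of probe 103830273 was lost without WT replicate 2, WT replicate 3 or Box1 replicate 2 (adjusted p = 0.071 to 0.074), and that of probe 2630075 without WT replicate 2 or 3 or Box1 replicate 1 or 3 (adjusted p = 0.064 to 0.078). With the 30 arrays in 1 fit, probe 2630075 (adjusted p = 0.88) and Ugt1a6b probe 6940114 (adjusted p = 0.95) were not called.

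Against the 569 livers, 3 of the 21 probes were called in 391, 4 in Box1 and 4 in KO, all higher, where 4.7%, 4.95% and 4.29% of all probes were called. Ugt1a6a probe 103830273 was higher in Box1 by 1.02 (limma adjusted p = 0.0032), a call kept in all 13 alternatives with a highest adjusted p of 0.024. Ugt1a6a probe 2630075 was called higher in 391 (0.73, limma adjusted p = 0.003), Box1 (0.88, limma adjusted p = 0.00082) and KO (0.58, limma adjusted p = 0.011). Ugt1a6b probe 6940114 was higher by 0.65 in 391 (limma adjusted p = 0.0041), 0.60 in Box1 (limma adjusted p = 0.007) and 0.49 in KO (limma adjusted p = 0.018). Ugt1a7c, also of the Ugt1 locus, was higher by 0.63 in 391 (limma adjusted p = 0.0058), 0.54 in Box1 (limma adjusted p = 0.013) and 0.58 in KO (limma adjusted p = 0.0088). Ugt1a7c gave 0.8, 0.62 and 0.69 in 569 and 0.96 to 1.31 in the 9 livers of 391, Box1 and KO. The 9 differences of Ugt1a6a probe 2630075, Ugt1a6b probe 6940114 and Ugt1a7c were no longer called with the 30 arrays of both tissues in 1 fit (adjusted p = 0.53 to 0.84). Those in KO, and that of Ugt1a7c in Box1, were lost without 569 replicate 2 (adjusted p = 0.058 to 0.097). Ugt1a7c in Box1 was also lost without Box1 replicate 2 or 3, Ugt1a6a in KO without KO replicate 1, and Ugt1a6b in KO without KO replicate 1 or 3. Ugt1a6b in KO was lost under quantile normalization too (adjusted p = 0.077). With 391 and 569 fitted alone, the 391 calls of Ugt1a6a probe 2630075, Ugt1a6b probe 6940114 and Ugt1a7c were lost (adjusted p = 0.05 to 0.087). Hepatocyte markers were higher in these mutants than in WT, and higher than in 569 in 391 and Box1, as given above, and their part in the Ugt1 values was not tested. These probes may read the last exons that the Ugt1 transcripts have in common, and so more than 1 gene. The slides of 569 and of these mutants differed.

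The rest of the glucuronidation pathway was followed through a list of 26 genes, of which 23 had a probe. Of the 3 measured genes that supply UDP-glucuronate, the 5 that use glucuronate or make ascorbate from it, and the 3 exporters of conjugates, none was called in a liver comparison with WT. Ugp2, which makes the UDP-glucose that is oxidised to UDP-glucuronate, came closest: its ratios were 0.46 to 0.75 in WT and 0.74 to 1.37 in 391, with a difference of 0.79 (limma adjusted p = 0.056), beside 0.80 in Box1 (adjusted p = 0.062) and 0.78 in KO (adjusted p = 0.058). Of the 12 measured regulators, 3 were called in 391, 1 in Box1 and 2 in KO, all higher, and 0 in 569, with 4 at an unadjusted p under 0.05. Counted over all 23 genes that is 3, 1 and 2, and the share of all probes called higher was 1.48%, 1.06% and 1.44%. For each pathway gene only the probe of largest SD over the livers was tested, a choice not made for the share of all probes.

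Bcl6, a repressor that can bind the sites of STAT5, gave ratios of 0.27, 0.42 and 0.22 in WT and 0.4, 1.14 and 0.39 in 569. It gave 1.22, 0.72 and 1.38 in 391, 1, 1.15 and 1.22 in Box1 and 1.14, 1.25 and 0.79 in KO. The differences were 1.87 in 391 (limma adjusted p = 0.014), 1.94 in Box1 (limma adjusted p = 0.013) and 1.83 in KO (limma adjusted p = 0.015). Each was lost without WT replicate 3 (adjusted p = 0.075 to 0.081) and without 1 or 2 of the mutant's own arrays, 391 replicate 1, Box1 replicate 2 or 3, and KO replicate 1 or 2. Rxra, the partner of several nuclear receptors that act on Ugt genes, rose by 0.59 in 391 (limma adjusted p = 0.045) and by 0.67 in KO (limma adjusted p = 0.023). Stat5a rose by 0.80 in 391 (limma adjusted p = 0.02). The calls of Rxra were lost in 7 of 14 and 5 of 13 alternatives, in both without WT replicate 2 or 3, in 391 without its replicate 1 or 2 and in KO without its replicate 1 or 3 (adjusted p = 0.062 to 0.18). That of Stat5a was lost in 6 of 14, among them without WT replicate 3 or 391 replicate 1 or 3 (adjusted p = 0.051 to 0.1) and without both pancreatic arrays (adjusted p = 0.065).

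In fat none of the 8 listed genes was called against WT, and none reached an unadjusted p under 0.05. The shares of all probes called there were 0% in 569, 0.0129% in 391, 0.00214% in Box1 and 0% in KO. Ugt2b36 stood out in single fat arrays, at ratios of 13.66 in Box1 replicate 2, 2.71 in WT replicate 2 and 1.94 in WT replicate 3, and between 0.76 and 1.28 in the other 12. Its difference of Box1 from WT was 0.53 with all arrays and -0.73 without Box1 replicate 2, and was called in neither case (limma adjusted p = 1). Ugt2b34 was also highest in Box1 replicate 2, at 2.55, as were Ugt2a3 at 1.59, Ugt2b35 at 1.44 and Ugt2b1 at 1.43. Hepatocyte markers were high on that array too: the mean log2 ratio of the 7 markers was 2.92, with 5 of the 7 above 1. In WT replicate 2 that mean was 1.67, with 4 of 7 above 1. There Ugt2b34 was at 1, Ugt2b35 at 1.11, Ugt2a3 at 1.14 and Ugt2b1 at 1.18. Alb, which defines hepatocytes, and Tat were at 1.32 and 1.01 in Box1 replicate 2, and at 0.95 and 0.96 in WT replicate 2. The part of these markers in the Ugt values was not tested.

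**Figure D5:**
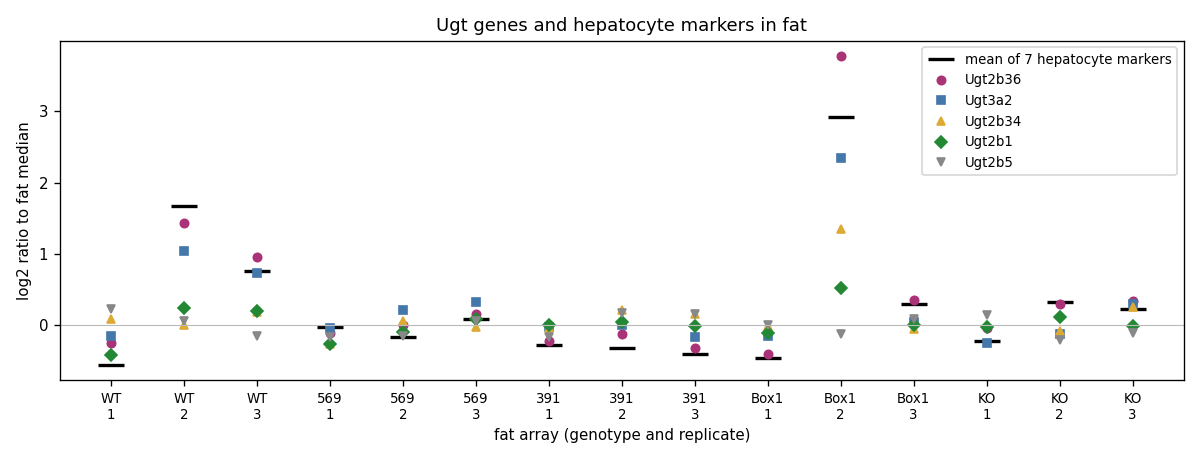
Ugt2b36, Ugt3a2, Ugt2b34, Ugt2b1 and Ugt2b5 on the 15 fat arrays, as the log2 ratio to the fat median, with the mean of 7 hepatocyte markers as a black bar on each array. The markers and Ugt2b36 are highest on Box1 replicate 2, at 2.92 on the log2 scale and at a ratio of 13.66, followed by WT replicate 2.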

How the data were processed

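Values came from Illumina bead arrays hybridised with biotin-labelled RNA of frozen tissue, per the labels' protocols. The authors deposited a ratio, the signal of a probe over that probe's median in the 15 arrays of its tissue. The values themselves show this, as that median equals 1 for each of the 46643 probes in liver and in fat. Software and background treatment: not given in the sources used here. Log2 ratios were fitted in R 4.3.3 with limma 3.58.1, without pseudocount or filter, with 5 genotypes per fit of a tissue (10 residual degrees of freedom) and all 30 arrays in 1 fit for the difference between tissues. Tests were two-sided, p-values were adjusted by Benjamini-Hochberg over all probes, and the fit was tested on simulated data. The number of arrays limits the precision. For a gene with several probes the one with the largest SD over the tissue's arrays was counted, and every probe of a listed gene is reported.

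All listed Ugt genes are named, other Ugt genes and pathway genes where called in liver against WT (values against 569 and Ugt1a9 were added after they were seen), and the 3 genes most correlated with a listed gene so called. Members and lists were chosen with earlier results of these data known. Marker lists were hepatocyte, pancreatic acinar, adipocyte, bile duct, enterocyte, kidney tubule and macrophage. No array pair held identical values. Promoter windows are from RefSeq, GRCm38.p6. Alternatives were quantile normalization, a pseudocount of 0.1, probes of higher SD, array weights, compared groups alone, robust eBayes, the mean of a gene's probes, 1 fit of 30 arrays, and leaving out arrays.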

Additional observations from a re-analysis of the deposited data

Results flagged for a closer look

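The difference of Ugt2b1 from WT differed between liver and fat by -1.77 on the log2 scale in 391, by -1.69 in Box1 and by -1.13 in KO, each by the interaction term of the 30-array limma fit (adjusted p = 0.00035, 0.00069 and 0.041). The value for 391 was called in all 19 alternatives. That for Box1 was lost in 1 of 19, with the compared groups fitted alone (adjusted p = 0.064). That for KO was lost in 11 of 19, among them each removal of a WT or KO liver, with a highest adjusted p of 0.13. The share of all probes called for these terms was 0.227%, 0.148% and 0.341%. Liver and fat of WT and of 569 lay on different slides, as did those of 391 and KO, so slide cannot be told apart from tissue there. Hepatocyte markers were high on some WT and Box1 fat arrays, as given above, and their part in these terms was not tested.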

How the results depend on the processing

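Of 276 recomputed counts of called genes, 239 stayed within 1.5 times the reported count. In KO against WT the count of 1 became 3 among the probes of higher SD, 2 under quantile normalization, with the compared groups alone, with the mean of a gene's probes and with all 30 arrays in 1 fit, and 1 to 2 on leaving out 1 array. In Box1 against 569 the count of 1 became 2 among the probes of higher SD and with the compared groups alone. In KO against 569 the count of 2 became 1 with all 30 arrays in 1 fit, and 1 to 2 on leaving out 1 array. In KO against 391 the count of 1 became 0 with robust eBayes and 0 without both pancreatic arrays, and 0 to 1 on leaving out 1 array. In KO against Box1 the count of 1 became 0 with robust eBayes, 0 with the mean of a gene's probes, and 0 on leaving out any 1 array. For liver against fat the count of 1 became 0 in Box1 with the compared groups alone, and 0 to 1 in KO on leaving out 1 array. The cause of these changes was not tested. Of the 33 single-gene calls, 359 of 466 alternatives kept the call and 0 reversed it. Ugt1a10 in KO against WT was called under quantile normalization, at 2.23 (adjusted p = 0.00041). Quantile normalization moved the median of all probes by at most 0.061. No paired analysis was possible because the labels give the arrays no replicate numbers. Slide as a block was not run, since the groups either share a slide wholly or not at all. With 3 arrays a group and no signal over background, differences that were not called are not shown to be absent.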

Other observations

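Probes of Ugt1a6a, Ugt1a6b and Ugt1a7c were low on 1 fat array. In 569 replicate 3 of fat the ratio was 0.08 for Ugt1a7c, against 0.53 to 1.74 on the other 14 arrays, and 0.09 for Ugt1a6a probe 2630075, against 0.57 to 1.87. Ugt1a6b probe 6940114 was at 0.08 there, against 0.61 to 1.54, and Ugt1a6b probe 4810601 at 0.2, against 0.58 to 2.17. The other 4 Ugt1a6a probes were at 0.27 to 0.67. The remaining probes of the Ugt1 locus were not low on this array, with Ugt1a10 at 0.91, 1.12 and 1.05, Ugt1a2 between 0.88 and 1.24, Ugt1a5 at 1 and Ugt1a9 at 1.02. On the same array all 6 adipocyte markers were more than 1 below the fat median on the log2 scale, with a mean of -2.32. The part of these markers in the Ugt1 values was not tested. No Ugt1 probe was called against WT in fat.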
